A study of Mus musculus with 12 samples.

Results

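The regions described here are the Jmjd2a and Jmjd2c peaks that lay within 1000 bp of a start site named for a mouse Zfp gene, that is, a gene whose symbol is Zfp followed by a number. They were chosen by that name and distance alone. In the Jmjd2a peak list 217 of 6908 peaks near a start site met the rule, out of 8977 peaks in all, and in the Jmjd2c list 293 of 9053, out of 10521. Together they made up 510 of the 19498 peaks of both lists. The Zfp names were checked against RefSeq: 403 mouse genes with a curated transcript carry such a symbol, of which 395 are protein-coding and 8 are noncoding RNAs or transcribed pseudogenes.

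The study used chromatin immunoprecipitation followed by sequencing (ChIP-seq), which reads out the DNA bound by a protein, in MLL-AF9 transformed L-GMP cells, leukaemic cells that resemble granulocyte-macrophage progenitors and were derived from mice with leukaemia. All cells were C57BL/6 and carried floxed Jmjd2a, Jmjd2b and Jmjd2c alleles with Rosa26::CreERT2, a Cre recombinase that tamoxifen activates, so the untreated controls carried the same alleles as the treated cells. The OHT groups had received 500 nM 4-hydroxytamoxifen for 96 h, the Ctrl groups none, and all grew in RPMI with 20% FBS and 10 ng/ml IL-3. The 12 libraries fell into 8 groups, with 1 Ctrl and 1 OHT library each for Jmjd2a and Jmjd2c, and 2 each for trimethylated lysine 9 and lysine 36 of histone H3. The peak lists used here give positions only, 1 list per protein, with no height and no value per library. The libraries behind each list are unknown from the sources used here, the depth is unknown, and neither the effect of OHT nor the histone modifications could be analysed. With no replicate for either protein, every value below is a description and no test was made.

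Jmjd2a (Kdm4a) and Jmjd2c (Kdm4c) are Jumonji-domain demethylases that demethylate histone H3 at lysine 9 and at lysine 36, and their tudor domains bind trimethylated lysine 4, the mark of active promoters. Most Zfp genes encode proteins with tandem C2H2 zinc fingers, each of which holds a zinc ion and contacts DNA. Many of these also carry a KRAB domain, which recruits Trim28 and the methyltransferase Setdb1 and so places trimethylated lysine 9 on retroelements and imprinted loci. Such genes arose by tandem duplication and stand in clusters on a few chromosomes.

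Promoter sequences are given first for the genes on which the patterns below turn, as the 250 bases upstream of a start site, 5′ to 3′ on the gene's strand, from RefSeq on GRCm38.p6, whose primary assembly is mm10. Capitals mark CG steps, the dinucleotides that DNA methylation acts on. The genes were picked after their peaks were known, to show each kind of occupancy. The first set holds promoters with both proteins: Zfp777, the widest shared Jmjd2a peak in a gene cluster, with 42 CG steps (chr6:48047795-48048044, minus strand); Zfp36l1, the widest Jmjd2a peak of all, with 10 (chr12:80113014-80113263, minus strand); and Zfp933, occupied in a cluster that otherwise had few peaks, with 8 (chr4:147848419-147848668, minus strand).
Zfp777: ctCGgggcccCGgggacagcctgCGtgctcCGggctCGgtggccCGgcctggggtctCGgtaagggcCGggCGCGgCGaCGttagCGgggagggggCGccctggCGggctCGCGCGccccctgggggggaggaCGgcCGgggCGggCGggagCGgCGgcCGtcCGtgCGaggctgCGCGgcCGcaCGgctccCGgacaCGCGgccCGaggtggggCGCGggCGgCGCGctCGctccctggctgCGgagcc
Zfp36l1: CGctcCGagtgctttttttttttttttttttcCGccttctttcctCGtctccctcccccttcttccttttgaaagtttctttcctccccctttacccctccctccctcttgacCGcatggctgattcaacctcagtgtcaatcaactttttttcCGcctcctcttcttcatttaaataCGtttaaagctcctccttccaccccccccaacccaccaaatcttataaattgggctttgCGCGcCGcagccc
Zfp933: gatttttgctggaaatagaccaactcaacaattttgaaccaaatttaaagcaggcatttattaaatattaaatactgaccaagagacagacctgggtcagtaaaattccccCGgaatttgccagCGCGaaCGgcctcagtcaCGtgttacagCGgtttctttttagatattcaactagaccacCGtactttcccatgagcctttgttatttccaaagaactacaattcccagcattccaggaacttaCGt

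The second set is the neighbouring trio with Jmjd2a and no Jmjd2c on chromosome 7: Zfp658 with 17 CG steps (chr7:43562120-43562369, plus strand), Zfp719 with 9 (chr7:43579336-43579585, plus strand) and Zfp819 with 17 (chr7:43606919-43607168, plus strand).
Zfp658: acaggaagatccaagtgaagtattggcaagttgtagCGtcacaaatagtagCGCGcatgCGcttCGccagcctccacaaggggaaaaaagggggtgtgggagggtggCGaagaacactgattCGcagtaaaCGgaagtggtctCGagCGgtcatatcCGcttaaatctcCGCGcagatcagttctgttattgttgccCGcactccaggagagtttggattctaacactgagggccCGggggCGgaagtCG
Zfp719: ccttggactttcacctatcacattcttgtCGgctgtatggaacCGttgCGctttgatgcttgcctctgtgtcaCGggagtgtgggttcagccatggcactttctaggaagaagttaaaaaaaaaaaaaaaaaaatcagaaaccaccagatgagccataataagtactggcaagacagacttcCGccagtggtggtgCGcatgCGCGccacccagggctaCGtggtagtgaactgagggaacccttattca
Zfp819: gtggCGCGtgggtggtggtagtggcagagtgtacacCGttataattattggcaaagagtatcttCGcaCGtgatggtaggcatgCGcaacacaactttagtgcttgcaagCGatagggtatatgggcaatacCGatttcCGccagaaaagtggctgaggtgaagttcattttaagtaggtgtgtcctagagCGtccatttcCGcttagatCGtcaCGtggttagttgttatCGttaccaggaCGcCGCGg

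The last set has Jmjd2c alone or no peak. Zfp866, in a cluster where Jmjd2c was at every gene, had 8 CG steps (chr8:69774912-69775161, minus strand). Zfp710, with the widest Jmjd2c peak, had 2 (chr7:80024564-80024813, plus strand). Zfp980, in a cluster with no peak at any of its starts, had 1 (chr4:145670447-145670696, plus strand), against 42 at Zfp777.
Zfp866: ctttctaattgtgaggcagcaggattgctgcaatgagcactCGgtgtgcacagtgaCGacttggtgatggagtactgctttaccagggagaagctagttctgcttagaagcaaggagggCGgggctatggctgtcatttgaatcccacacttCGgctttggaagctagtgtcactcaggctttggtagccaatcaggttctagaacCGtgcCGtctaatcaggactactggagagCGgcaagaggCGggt
Zfp710: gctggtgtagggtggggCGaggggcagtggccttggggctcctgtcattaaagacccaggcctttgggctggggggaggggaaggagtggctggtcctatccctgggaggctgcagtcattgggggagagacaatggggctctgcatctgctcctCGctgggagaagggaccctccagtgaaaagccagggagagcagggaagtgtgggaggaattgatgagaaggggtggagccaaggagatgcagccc
Zfp980: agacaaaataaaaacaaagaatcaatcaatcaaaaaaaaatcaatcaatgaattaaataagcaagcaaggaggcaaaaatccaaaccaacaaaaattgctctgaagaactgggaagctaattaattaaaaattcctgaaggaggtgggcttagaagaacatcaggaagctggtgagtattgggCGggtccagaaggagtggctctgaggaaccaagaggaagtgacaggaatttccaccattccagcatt

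The 510 peaks covered a large share of the family. By name, Jmjd2a peaks stood at 206 of the 403 Zfp genes, or 51.1% (exact 95% binomial interval 46.1 to 56.1, counting error only), against 25.7% of all 26215 curated genes. Jmjd2c peaks stood at 288, or 71.5% (66.8 to 75.8), against 37.4% of all curated genes. Both proteins were at 198 Zfp genes, or 49.1% (44.1 to 54.1), against 22.8% of all genes. Among protein-coding genes, which nearly all Zfp genes are, the corresponding shares were 30.6%, 44.2% and 27.2% of 21027 genes. The all-gene shares were matched by RefSeq accession, and the Zfp shares by that same match were 54.1%, 74.4% and 52.1%.

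Jmjd2c alone was at 90 Zfp genes (22.3%) and Jmjd2a alone at 8 (1.99%), and 107 genes (26.6%) had a peak of neither protein under their name. The 8 genes with Jmjd2a alone were Zfp35, Zfp503, Zfp612, Zfp652, Zfp658, Zfp719, Zfp819 and Zfp827. Having no peak by name is not the same as having no peak. At 22 of the 107 genes a peak lay within 1000 bp of a RefSeq start but the deposited annotation named it for another gene, for an older symbol, or measured it from a start farther away. Both proteins were present at 19 of these 22, and Jmjd2c alone at 3 (Zfp971, Zfp141 and Zfp385c). Zfp512b, for example, lay under a Jmjd2a peak of 1685 bp and a Jmjd2c peak of 1301 bp named for Znf512b, and Zfp984 under peaks of 1667 and 1210 bp named for Gm13157. Of the other 85 Zfp genes, 62 had no peak within 1000 bp of any RefSeq start in the promoter table. The other 23 have no start there and were placed by the left edge of the gene, which need not be the start. At 2 of these, Zfp654 and Zfp729b, peaks of both proteins lay within 1000 bp of an edge, and a Jmjd2c peak lay inside Zfp469.

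The Jmjd2a peaks were somewhat wider at Zfp genes than elsewhere and the Jmjd2c peaks somewhat narrower, with distributions that overlapped almost entirely. Jmjd2a peaks at Zfp promoters were 849 bp wide in median (quartiles 600 and 1082, n = 217, from 274 to 2360), against 761 bp (530 to 1062) over all 6908 Jmjd2a peaks near a start. Jmjd2c peaks at Zfp promoters had a median of 1289 bp (1036 to 1650, n = 293, from 371 to 4031), against 1366 bp (1031 to 1729) over all 9053. Width here is the length of the called region, and it depends on calling thresholds not given in the sources used here.

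**Figure D1:**
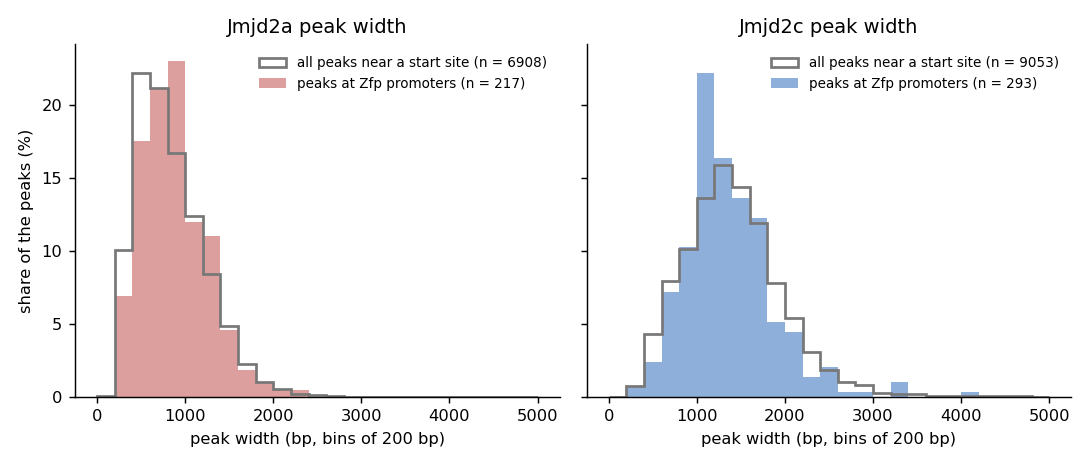
Histograms of peak width (bp, bins of 200 bp) for Jmjd2a on the left and Jmjd2c on the right, as a share of the peaks (%); filled bars are peaks at Zfp promoters (217 and 293) and the grey outline all peaks within 1000 bp of a start site (6908 and 9053). The filled Jmjd2a bars sit slightly to the right of the outline (medians 849 and 761 bp) and the filled Jmjd2c bars slightly to the left (1289 and 1366 bp).

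The widest Jmjd2a peak stood at Zfp36l1, which encodes a CCCH-type protein that binds AU-rich elements of messenger RNAs and speeds their decay. It spanned 2360 bp (chr12:80112540-80114899) over the start, exon, intron and coding sequence and overlapped 2 Jmjd2c peaks, of which the 1 at the start was 1401 bp wide. The next was at Zfp777, a zinc finger gene of the chromosome 6 cluster, with 2025 bp of Jmjd2a inside 2484 bp of Jmjd2c. Zfp938 followed with a Jmjd2a peak of 1863 bp and a Jmjd2c peak of 1071 bp, then Zfp689 with 1813 and 1546 bp, and Zfp369 with 1740 and 2480 bp. At Zfp36l1, Zfp938 and Zfp689 the Jmjd2a region was thus wider than the Jmjd2c region at the start, the reverse of the usual order.

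The narrowest Jmjd2a peaks were 274 bp at Zfp384, 277 bp at Zfp958 and 319 bp at Zfp873. At Zfp384 the Jmjd2a peak lay 387 bp from the start named in the deposited annotation and 275 bp from the nearest RefSeq start, inside a Jmjd2c peak of 2455 bp (chr6:125007915-125010369). Zfp958 and Zfp873 each had a second Jmjd2a peak, of 427 and 632 bp.

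The widest Jmjd2c peak stood at Zfp710 and spanned 4031 bp (chr7:80024534-80028564), over promoter, exon, 5′ untranslated and intron sequence. No Jmjd2a peak overlapped it, and the nearest lay 89869 bp from the start. Zfp516, a regulator of brown fat genes, had a Jmjd2c peak of 3391 bp and further ones of 990 and 945 bp, with a Jmjd2a peak of 628 bp inside the widest. Zfp703, known as an oncogene in human breast cancer, had 3278 bp of Jmjd2c and 371 bp of Jmjd2a. Zfp608 (3200 bp) and Zfp84 (2814 bp) had wide Jmjd2c peaks with no Jmjd2a. The narrowest Jmjd2c peaks were 371 bp at Zfp934, 399 bp at Zfp820 and 448 bp at Zfp354b. Only the peak at Zfp820, of these 3, overlapped Jmjd2a, by a peak of 430 bp.

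Member peaks lay on the start site more often than peaks in general. Of the Jmjd2a peaks, 164 of 217 covered the start, or 75.6% (69.3 to 81.1), against 66.7% of all Jmjd2a peaks near a start. Of the Jmjd2c peaks, 278 of 293 did, or 94.9% (91.7 to 97.1), against 91.0%. The 53 Jmjd2a peaks off the start lay at a median of 215 bp from it (from 1 to 981), against 130.5 bp for the 2302 such peaks in all, and the 15 Jmjd2c peaks at a median of 103 bp (from 4 to 664).

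Fewer of these peaks reached coding sequence. The deposited annotation placed coding sequence under 81 Jmjd2a peaks (37.3%, interval 30.9 to 44.1) and 129 Jmjd2c peaks (44.0%, 38.3 to 49.9), against 57.4% and 66.9% of all peaks near a start. Untranslated 5′ sequence lay under 86.6% of the Jmjd2a and 97.6% of the Jmjd2c peaks, against 80.7% and 94.4%. The lengths of first exons and introns of Zfp genes were not compared with those of other genes, and their part in these shares was not tested.

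The distance limit divided few peaks. Just inside it, the Jmjd2a peaks at Zfp827, Zfp503 and Zfp78 lay 981, 800 and 790 bp from the named start, and the Jmjd2c peaks at Zfp467, Zfp91 and Zfp78 lay 664, 597 and 587 bp from it. Just outside, the Jmjd2a peaks of Zfp74 and Zfp287 lay at 1134 and 2057 bp, and the Jmjd2c peaks of Zfp503 and Zfp74 at 1145 and 1234 bp. Zfp503 therefore counted as bound by Jmjd2a alone although a Jmjd2c peak of 1317 bp overlapped its Jmjd2a peak of 1731 bp. In all, 50 Jmjd2a and 51 Jmjd2c peaks named for a Zfp gene lay beyond 1000 bp, beside the 217 and 293 within it. Over the whole lists, 6908 of 8977 Jmjd2a peaks and 9053 of 10521 Jmjd2c peaks lay within 1000 bp of a start.

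The profile around start sites was read from the authors' windows reaching 1 kb upstream and downstream of co-bound start sites, of which 220 of 6940 named a Zfp gene (203 names). Jmjd2a peaks covered the start itself in 76.8% of the Zfp windows (70.7 to 82.2), against 66.9% of the 6720 others. Coverage by Jmjd2a was highest at 75 bp downstream in the Zfp windows, with 83.6%, and at 200 bp downstream in the others, with 77.4%. At 500 bp upstream it was 35.0% (28.7 to 41.7) against 40.6%, and at 500 bp downstream 51.8% (45.0 to 58.6) against 54.9%. Jmjd2c covered 95.5% of the Zfp starts and 94.1% of the others, with maxima of 97.7% at 250 bp and 95.8% at 175 bp downstream. The Jmjd2c curve of the Zfp windows fell off more steeply beyond 500 bp.

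**Figure D2:**
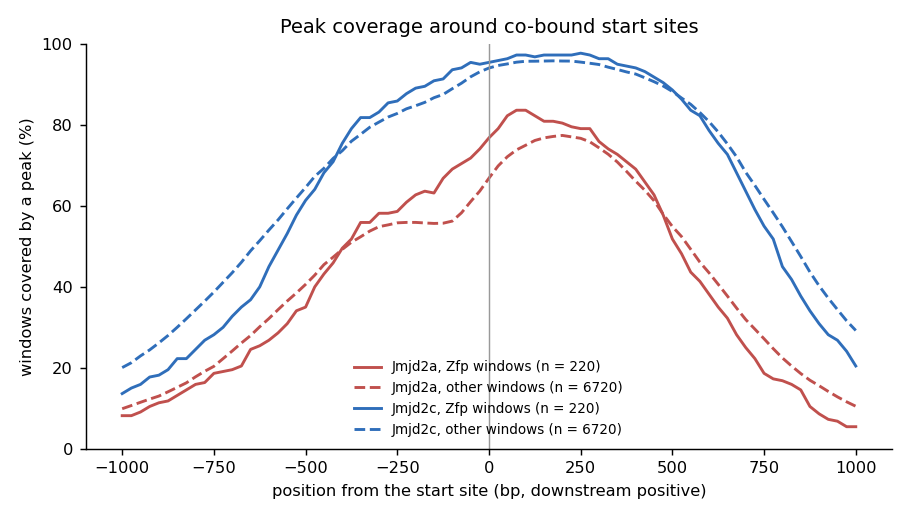
Share of windows covered by a peak (%) at each position from 1 kb upstream to 1 kb downstream of the start site (bp, downstream positive, steps of 25 bp), for Jmjd2a in red and Jmjd2c in blue; solid lines are 220 Zfp windows and dashed lines 6720 other windows. Around the start the solid Jmjd2a line lies above the dashed line (76.8% and 66.9% at the start), and both solid lines lie below the dashed ones towards the window edges.

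Nearly every Jmjd2a peak at a Zfp promoter overlapped a Jmjd2c peak. With an overlap of 1 bp or more counted as shared, 206 of 217 Jmjd2a peaks were shared, or 94.9% (91.1 to 97.4), against 86.9% of all Jmjd2a peaks near a start. In the other direction 197 of 293 Jmjd2c peaks were shared, or 67.2% (61.5 to 72.6), against 61.6%. Shared peaks were wider than unshared ones: 864 bp against 602 bp in median for Jmjd2a (n = 206 and 11), and 1318 against 1201 bp for Jmjd2c (n = 197 and 96). The same order held over all peaks near a start, with 791 and 615 bp for Jmjd2a and 1425 and 1243.5 bp for Jmjd2c.

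Where the proteins met, the Jmjd2a region was the smaller. It lay wholly inside a Jmjd2c peak in 125 of 206 cases, or 60.7% (53.7 to 67.4), against 63.7% over all near peaks, a difference within the interval. The median Jmjd2a peak had 67.2% of the width of its Jmjd2c partner, against 58.1% in general, and 34 of 206 (16.5%) were wider than their partner, against 12.9%. Zfp57, which maintains imprinting marks, was among these, with 938 bp of Jmjd2a and 704 bp of Jmjd2c. More than 1 Jmjd2a peak lay under 12 of the Jmjd2c peaks (4.10%), against 5.11% in general.

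The 11 Jmjd2a peaks without Jmjd2c were modest in width. The widest was 1080 bp at Zfp819 (chr7:43606591-43607670), followed by 978 bp at Zfp719, 872 bp at Zfp35, 623 bp at Zfp658, 603 bp at Zfp612, 602 bp at Zfp143, 534 bp at Zfp827, 475 bp at Zfp652, 450 bp at Zfp574 and 435 bp at Zfp108. The 11th was the peak of 319 bp at Zfp873. Zfp574 and Zfp873 each had a second Jmjd2a peak that was shared. Zfp143, whose product binds promoters and loop anchors, and Zfp108 also had a Jmjd2c peak at the promoter that did not overlap the Jmjd2a peak. Of the 96 Jmjd2c peaks without Jmjd2a the widest were those at Zfp710, Zfp608 and Zfp84 given above, then 2625 bp over Zfp942 and Zfp943, on opposite strands, and 2551 bp at Zfp609.

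Some genes had more than 1 member peak, at the same start or at different starts. For Jmjd2a this was so at 12 genes, each with a pair of peaks: Zfp180, Zfp251, Zfp386, Zfp407, Zfp574, Zfp668, Zfp688, Zfp790, Zfp800, Zfp873, Zfp958 and Zfp961. At Zfp668 a Jmjd2a peak of 494 bp and another of 756 bp lay under a single Jmjd2c peak of 2550 bp (chr7:127875027-127877576), which also overlay the start region of the divergent Zfp646. For Jmjd2c the genes were Zfp219, Zfp467, Zfp516, Zfp672, Zfp78 and Zfp91, the last with the readthrough name Zfp91Cntf. At Zfp219 the peaks were 921 and 1894 bp wide and at Zfp672 they were 1435 and 1866 bp wide, each peak covering a named start. The share of all genes with several peaks was not computed.

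The deposited annotation gave several Zfp names to 10 Jmjd2a and 15 Jmjd2c peaks, but by RefSeq coordinates only 1 and 5 of these overlapped more than 1 Zfp gene. The Jmjd2a peak was that of 350 bp over Zfp65 and the antisense gene Zfp85os. The Jmjd2c peaks lay over the same genes (1105 bp), over Zfp85 and Zfp85os (1358 bp), over Zfp942 and Zfp943 (2625 bp), over Zfp956 and Zfp783 (884 bp) and over Zfp646 and Zfp668 (2550 bp). Neighbours with a double name mostly had a peak each. Zfp566 had 602 bp of Jmjd2a and 2086 bp of Jmjd2c and Zfp260 had 800 and 1825 bp, while Zfp27 had 1061 and 1206 bp and Zfp383 had 928 and 986 bp. Zfp944 had 644 bp of Jmjd2a with 1068 bp of Jmjd2c, and a Jmjd2c peak of 549 bp lay over Zfp758. Genes on both strands lay under 16.1% of the Jmjd2a and 17.7% of the Jmjd2c peaks, against 19.5% and 20.7% of all near peaks.

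Member peaks were concentrated on a few chromosomes. Chromosome 7 held 64 of the 217 Jmjd2a peaks (29.5%) and 75 of the 293 Jmjd2c peaks (25.6%), against 7.18% and 7.04% of all peaks near a start. Chromosome 17 held 26 Jmjd2a and 36 Jmjd2c peaks (12.3% of the latter), against 4.59% and 5.06%. Chromosome 13 held 8.29% and 10.9%, against 3.95% and 3.76%. All peaks near a start do not account for where Zfp genes lie, and these genes were themselves unevenly placed. Clusters of 5 or more held 76 of the 403 Zfp genes on chromosome 7 and 36 on chromosome 17. The shares depend on this placement as well as on how many of the genes had a peak, and these parts were not separated. In clusters of 5 or more genes, Jmjd2a was named at 49 of 76 genes on chromosome 7 and at 1 of 15 on chromosome 4.

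When neighbouring Zfp starts within 500 kb were joined, 184 genes fell into 18 clusters of 5 or more, 57 into 17 clusters of 3 or 4, and 162 stood in no cluster of 3 or more, 34 of them in pairs. Jmjd2a was named at 52.7% (45.2 to 60.1) of the genes in clusters of 5 or more and at 53.1% (45.1 to 61.0) of those in no cluster of 3 or more, and in the small clusters at 23 of 57, or 40.4% (27.6 to 54.2). Jmjd2c was named at 75.0% (68.1 to 81.1), 68.5% (60.8 to 75.6) and 68.4% (54.8 to 80.1), and the intervals overlap for each protein. Jmjd2c peaks in clusters of 5 or more were narrower in median, 1201 bp (1030 to 1508, n = 138) against 1403 bp (1112 to 1774, n = 116) outside clusters of 3 or more. The Jmjd2a peaks of those clusters had a median of 875 bp (623 to 1181, n = 101) against 805.5 bp (n = 90).

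**Figure D3:**
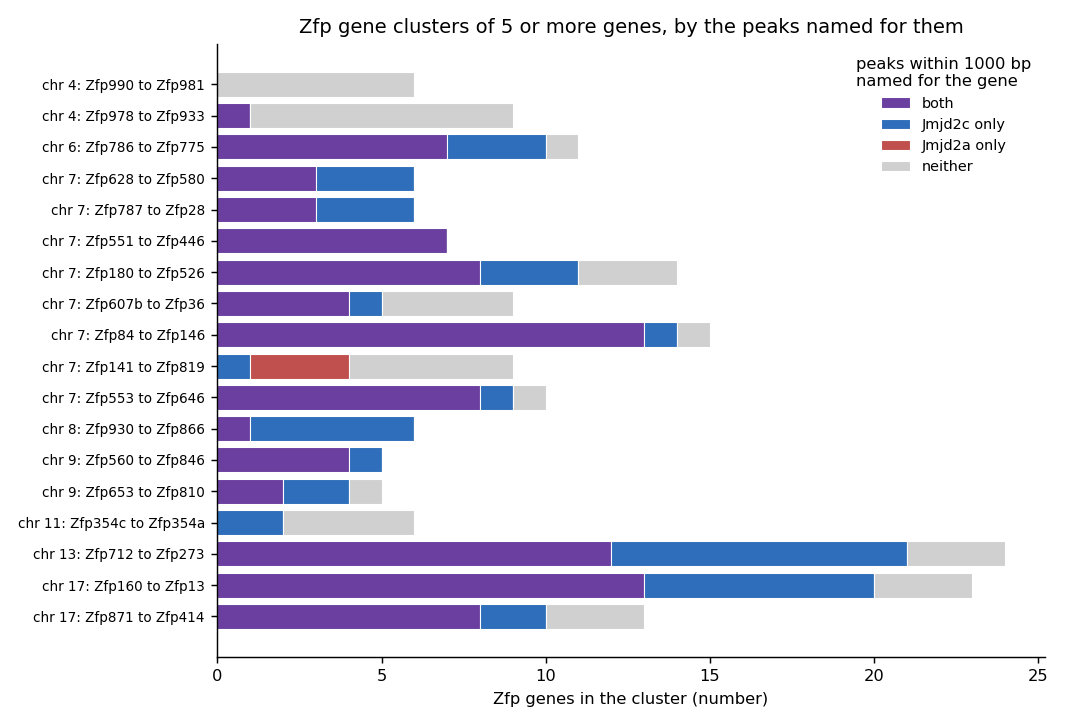
Number of Zfp genes in each of the 18 clusters of 5 or more genes, by whether a peak within 1000 bp was named for the gene by both proteins (purple), Jmjd2c only (blue), Jmjd2a only (red) or neither (grey); clusters are labelled by chromosome and by their first and last gene. The bar from Zfp551 to Zfp446 is wholly purple (7 genes), that from Zfp990 to Zfp981 wholly grey (6 genes), and red appears only in the bar from Zfp141 to Zfp819 (3 genes).

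Individual clusters ranged from wholly occupied to empty. Counts are by name, and 12 of the 22 genes with a peak named otherwise lay in these 18 clusters. On chromosome 7 the cluster from Zfp551 to Zfp446 (chr7:12422491-12976196) had both proteins at 7 of 7 genes, the widest peaks being 1480 bp of Jmjd2a at Zfp128 and 2106 bp of Jmjd2c at Zfp324. The cluster from Zfp84 to Zfp146 (chr7:29768552-30169741) had both at 13 of 15 genes and Jmjd2c alone at Zfp84. Its 15th gene, Zfp74, lay under a Jmjd2a peak of 1358 bp and a Jmjd2c peak of 1833 bp that the annotation measured from a start more than 1000 bp away. The widest Jmjd2a peak there was 1711 bp at Zfp146 and the widest Jmjd2c peak the unshared 2814 bp at Zfp84.

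Other chromosome 7 clusters were mixed. From Zfp628 to Zfp580 and from Zfp787 to Zfp28, Jmjd2c was at 6 of 6 genes and Jmjd2a at 3 of 6 in each. The widest peaks of the former were 1200 bp of Jmjd2a at Zfp524 and 2287 bp of Jmjd2c there, and those of the latter 712 bp at Zfp667 and 2056 bp at Zfp787. From Zfp180 to Zfp526, 8 of 14 genes had both and 3 Jmjd2c alone, with Jmjd2a peaks of a median of only 537.5 bp and a widest of 1442 bp at Zfp235. The widest Jmjd2c peak there was 1964 bp at Zfp61. From Zfp607b to Zfp36, 4 of 9 genes had both, and the widest Jmjd2a peak was 1275 bp at Zfp780b. The widest Jmjd2c peak there was 1603 bp at Zfp607, now Zfp607a, which had no Jmjd2a. From Zfp553 to Zfp646, 8 of 10 had both, with the widest Jmjd2a peak at Zfp689 (1813 bp) and the widest Jmjd2c peak at Zfp668 (2550 bp).

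Genes with Jmjd2a and no Jmjd2c by name appeared in clusters of 5 or more only from Zfp141 to Zfp819 (chr7:42505753-43607169). There Zfp658, Zfp719 and Zfp819, consecutive Zfp genes at the end of the cluster, had Jmjd2a peaks of 623, 978 and 1080 bp over their starts. The nearest Jmjd2c peaks lay 95558, 91716 and 64133 bp from those starts. In the same cluster Zfp715 had Jmjd2c alone, 1336 bp wide. Zfp976 and Zfp975 lay under peaks of both proteins named 9830147E19Rik and Gm5595, and Zfp141 under a Jmjd2c peak of 963 bp named 4933421I07Rik, so the cluster also held shared and Jmjd2c sites.

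**Figure D4:**
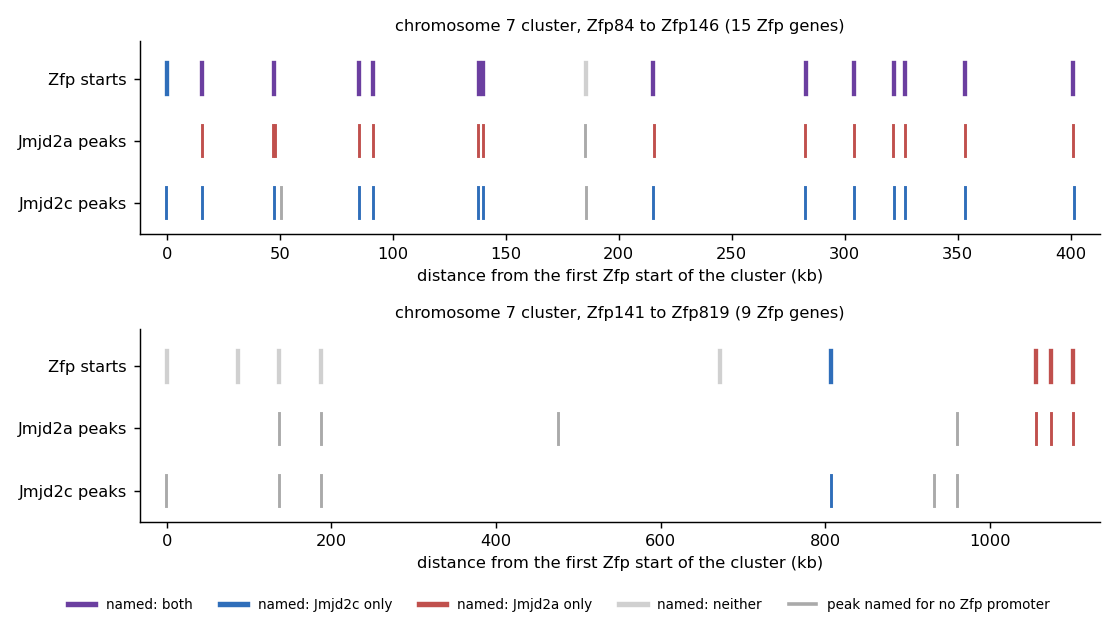
Maps of the chromosome 7 clusters from Zfp84 to Zfp146 (15 genes, top) and from Zfp141 to Zfp819 (9 genes, bottom), with distance from the first Zfp start in kb; ticks in the top row of each are Zfp starts coloured by the peaks named for them, and ticks below are Jmjd2a and Jmjd2c peaks, grey where the annotation named them for no Zfp promoter. In the top map 13 starts carry both proteins; in the bottom map the 3 starts at the right end have Jmjd2a peaks with no Jmjd2c peak below them, and grey peaks underlie 3 of the grey starts.

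On chromosome 8 the balance was the opposite. From Zfp930 to Zfp866 (chr8:69209018-69774911) Jmjd2c was at 6 of 6 genes, with a median width of 1256 bp and the widest peak at Zfp869 (1775 bp). Jmjd2a was at 1 of the 6, Zfp964, with 799 bp. Smaller clusters showed the same: 4 of 4 genes from Zfp120 to Zfp345 on chromosome 2 and 3 of 3 from Zfp808 to Zfp934 on chromosome 13 had Jmjd2c and none had Jmjd2a. The Jmjd2c peaks in these were narrow, with medians of 877.5 and 792 bp. Elsewhere on chromosome 8, from Zfp709 to Zfp961 (chr8:71882068-71951066), both proteins were at 4 of 4 genes.

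The clusters on chromosome 4 were nearly empty. From Zfp990 to Zfp981 (chr4:145510759-146514920) none of 6 genes had a peak of either protein within 1000 bp of a start or, for Zfp990 and Zfp992, of the gene. From Zfp978 to Zfp933 (chr4:147124882-147848418) 1 of 9 had peaks by name, Zfp933, with 1234 bp of Jmjd2a and 1447 bp of Jmjd2c, and Zfp984 lay under the peaks named Gm13157. Of 7 genes in the chromosome 2 clusters from Zfp968 to Zfp966 and from Zfp970 to Zfp931 none had a peak by name, and Zfp971 lay under a Jmjd2c peak of 530 bp named Etohi1. On chromosome 11, from Zfp354c to Zfp354a, 2 of 6 genes had Jmjd2c, up to 929 bp at Zfp354c, and none had Jmjd2a.

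The remaining clusters lay between. From Zfp712 to Zfp273 on chromosome 13, the largest with 24 genes, 12 had both proteins and 9 Jmjd2c alone, the widest peaks being 1181 bp of Jmjd2a at Zfp273 and 1618 bp of Jmjd2c at Zfp874a. From Zfp160 to Zfp13 on chromosome 17, 13 of 23 had both and 7 Jmjd2c alone, with 1200 bp of Jmjd2a at Zfp213 and 2625 bp of Jmjd2c over Zfp942 and Zfp943. From Zfp871 to Zfp414 on the same chromosome 8 of 13 had both, with 1683 and 2469 bp at Zfp472. On chromosome 6, from Zfp786 to Zfp775, 7 of 11 had both and 3 Jmjd2c alone, led for each protein by Zfp777. On chromosome 9, 4 of 5 genes from Zfp560 to Zfp846 had both, with 1488 bp of Jmjd2a at Zfp560 and 1763 bp of Jmjd2c at Zfp426. From Zfp653 to Zfp810, 2 of 5 had both and 2 Jmjd2c alone, with 954 bp at Zfp810 and 1665 bp at Zfp653.

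Zfp genes with known roles were grouped into lists, which were drawn up with earlier results of these data known. Of 7 genes whose products silence imprinted loci or retroelements, 5 had Jmjd2a, 6 had Jmjd2c and 4 had both. Zfp57 and Zfp445, which protect imprints, had 938 and 964 bp of Jmjd2a with 704 and 1558 bp of Jmjd2c. Zfp568, which represses a placental transcript of Igf2, had 898 and 1441 bp, and Zfp932, a repressor of endogenous retroviruses, 766 and 1110 bp. Zfp809, which recognises the primer binding site of murine leukaemia virus, had Jmjd2c alone (1533 bp), as did Zfp708 (1000 bp), whereas Zfp819 had Jmjd2a alone (1080 bp).

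Of the 3 genes for CCCH proteins of messenger RNA decay, Zfp36l1 had both, at the widest Jmjd2a peak of the set. Zfp36 had neither, with the nearest Jmjd2a and Jmjd2c peaks 28751 and 12835 bp from its start, nor did Zfp36l2, with 277805 and 277720 bp from the nearer edge of the gene, whose start was not given. Of the 3 pluripotency genes, Zfp281 (1536 and 1397 bp) and Zfp296 (862 and 1793 bp) had both. Zfp42, which encodes Rex1 of embryonic stem cells, had its nearest peaks 1889898 and 1889389 bp away.

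Of 8 genes with roles in blood or immune cells, 7 had Jmjd2c and 3 had Jmjd2a, always together with Jmjd2c. Zfp335, needed for T cell maturation, had 1082 bp of Jmjd2a and 1679 bp of Jmjd2c. Zfp318, which controls IgD expression in B cells, had 864 and 1650 bp. Zfp91, a ubiquitin ligase of the NF-kB pathway, had a Jmjd2a peak of 482 bp and Jmjd2c peaks of 682 and 1402 bp. Jmjd2c alone stood at Zfp148 (2233 bp), Zfp64 (1351 bp), Zfp423 (1005 bp) and Zfp217 (975 bp). Zfp64 is known in human leukaemia as an activator of the MLL promoter. Zfp521, a cofactor of early haematopoietic progenitors, had neither, its nearest peaks lying 654765 and 708803 bp from the nearer edge of the gene, whose start was likewise not given.

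A last list of 7 genes of mixed roles, from ribosome quality control to brown fat, had both proteins at each gene. In this list the Jmjd2a peaks were the narrower by far at several genes: 434 bp against 1714 bp at Zfp207, a spindle protein gene, 475 against 1758 bp at Zfp106, and 758 against 2107 bp at Zfp131. Zfp598, whose product marks collided ribosomes, had 1075 and 1536 bp, and Zfp143 had 602 and 877 bp. Zfp703 and Zfp516 are given above. These lists are small and overlap the peaks in every other paragraph. The family shares were 51.1% for Jmjd2a, 71.5% for Jmjd2c and 49.1% for both. Because the lists were drawn up with earlier results known, a difference from these shares says nothing about a role.

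Sequence was compared over RefSeq promoter windows of 300 bases, from 250 before to 50 after a start, grouped by the peaks within 1000 bp of that start whatever their name. There were 406 windows of 336 Zfp symbols among 32851 windows. CG content was expressed as CG steps observed over those expected from the base composition of the window. Zfp windows with both proteins had a median ratio of 0.71 (interquartile range 0.50 to 0.84, n = 226), below the 0.82 (0.68 to 0.95) of all 6636 windows with both. Those with Jmjd2c only had 0.59 (0.43 to 0.78, n = 86) against 0.78, and those with Jmjd2a only 0.81 (0.67 to 1.01, n = 6) against 0.73. Zfp windows with neither had 0.38 (0.24 to 0.60, n = 88), above the 0.23 of all windows with neither.

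**Figure D5:**
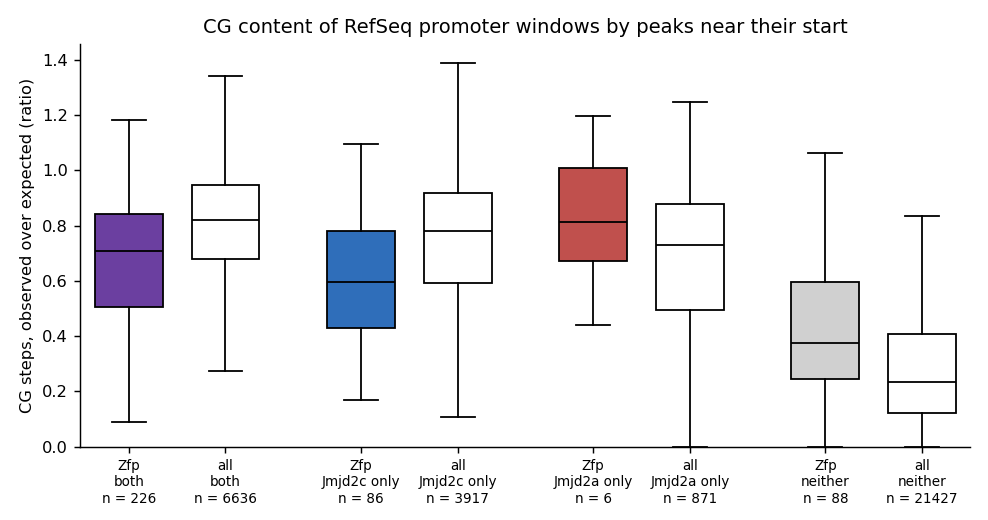
Box plots of CG steps observed over expected (ratio) in RefSeq promoter windows, for Zfp windows (filled) and all windows (open) with both proteins, Jmjd2c only, Jmjd2a only or neither within 1000 bp of the start; boxes show the quartiles and the median, and the numbers of windows are on the axis. Filled boxes for both proteins and for Jmjd2c only sit below the open ones (medians 0.71 and 0.82, 0.59 and 0.78), and the filled box for neither sits above (0.38 and 0.23).

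The GC content had medians of 56.3% in Zfp windows with both proteins and 54.8% in those with Jmjd2c only, against 63.0% and 61.3% of all windows of these classes. Zfp windows with neither had 49.7%, against 48.7%. The 6 Zfp windows with Jmjd2a only went apart, with a GC content of 51.0% against 62.0% but a CG ratio above that of their class. They included the neighbouring trio Zfp658, Zfp719 and Zfp819, and also Zfp503, whose Jmjd2a peak overlapped a Jmjd2c peak 1145 bp from the start. Within the family each occupied class had a higher median CG ratio than the windows with neither, while the classes with both proteins and with Jmjd2c only lay below the same classes over all genes.

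Short motifs were searched on both strands. The GC box GGGCGG was in 47.8% of the Zfp windows with both proteins, against 69.2% of all windows with both and 35.7% of all windows. The ETS core CCGGAAG was in 26.1%, against 21.5% and 8.86%. It was in 10.5% of the Zfp windows with Jmjd2c only and 20.5% of those with neither, against 19.4% and 3.08% of all windows of those classes. CCAAT was in 44.2% of the Zfp windows with both, against 38.7% and 37.4%, and in 51.2% of the Zfp windows with Jmjd2c only and 52.3% of those with neither. ACTACAA, part of the motif of Zfp143 itself, was in 7.08%, against 4.45% and 3.24%. AAGATGG, the YY1 core, was in 8.41% against 7.55% and 6.34%. TGACGTCA was in 4.42% against 3.83% and 1.79%, and CTCGCGAG in 0.44% against 2.37% and 0.92%. None of the motifs is contained in another, and a match is only a run of letters. The chromosome 2 windows from Zfp968 to Zfp931, with the pair Zfp967 and Zfp973 and mostly copies as given below, held CCGGAAG in 6 of 9 and CCAAT in 9 of 9. In the chromosome 4 clusters the counts were 0 and 11 of 15. The part of copied windows in the shares of Zfp windows with neither was not separated.

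GCGCATG, the core of the NRF1 motif, was in 5.31% of the Zfp windows with both proteins, against 8.11% of all windows with both and 3.91% of all windows. It was in 3 of the 6 Zfp windows with Jmjd2a only, those of Zfp658, Zfp719 and Zfp819 printed above, where it ends 192, 49 and 164 bases before the start. Of all 871 windows with Jmjd2a only, 4.48% held it. The 3 promoters were no more alike in sequence than other pairs: identity in pairwise alignment was 41.2% between Zfp658 and Zfp719, 42.3% between Zfp658 and Zfp819 and 42.0% between Zfp719 and Zfp819, against a median of 41.3% (36.2 to 45.7) over 18 pairs of 1 of them with another printed promoter. This motif was noticed at these genes after their values were seen.

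Copies of a promoter elsewhere in the genome bear on whether reads could be placed. Only copies among the RefSeq promoter windows were counted here, so copies at other places were missed. Windows in which at least 50% of the words of 36 bases also occurred in another window made up 2 of the 226 Zfp windows with both proteins (0.88%), 6 of the 86 with Jmjd2c only (6.98%) and 16 of the 88 with neither (18.2%). Over all windows the shares were 0.11%, 0.54% and 6.35%. On chromosome 2 from Zfp968 to Zfp931, with the pair Zfp967 and Zfp973 that lies between the clusters, 8 of 9 windows were of this kind. On chromosome 4 it was 3 of 15 (20%). The 18.2% of Zfp windows with neither is no separate baseline for these, because that class includes most of these chromosome 2 and chromosome 4 windows. Some word was shared by 11 of the 15 chromosome 4 windows (73.3%), against 10.3% of all windows. It was 35.2% in the Zfp windows with neither, which again include most of the 15. Neither read length nor the handling of reads with several matches was stated in the sources used here, and the part of sequence copies in the empty clusters was not tested.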

How the data were processed

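ChIP-seq libraries for Jmjd2a, Jmjd2c and trimethylated lysines 9 and 36 of histone H3 were made from MLL-AF9 transformed L-GMP cells. The submitters' processing notes name the genome build mm10 and the tools bedtools 2.25.0, Bowtie 0.12.7 and SAMtools. The authors deposited peak positions in bp, the features under each peak, the nearest start and its distance, per the file headers, and a table of windows around start sites bound by both proteins. None of the deposited columns holds counts or scores. Depth is therefore unknown, and shallow libraries would miss weak sites. No peak caller is named in the sources used here.

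Positions were read as 0-based with an excluded end and printed counting from 1. Peaks were taken by name and by a distance of at most 1000 bp, and called shared at 1 bp of overlap. Intervals are exact Clopper-Pearson at 95%, over peaks or genes that are not replicates, and cover counting error only. Of 403 Zfp genes, 332 were placed by the RefSeq promoter table and the rest by the left edge of the gene. Another 13 names without a curated transcript were left out. Older names (Zfp191, Zfp607) were matched through RefSeq synonyms. Python 3.11.15, pandas 2.3.3, numpy 2.4.6, scipy 1.17.1 and matplotlib 3.10.9 were used, and the overlap step was tested on simulated intervals.

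Genes named in the text are the widest and narrowest peaks, those nearest the distance limit, the widest per cluster, unshared peaks, genes with several peaks and lists by role; printed promoters, the genes named for differing annotation and the motif at the Jmjd2a-only trio were chosen after values were seen. Members and lists were chosen with earlier results of these data known. Protein sequences were not used here, so finger counts and KRAB domains were not analysed. Alternatives changed the distance, naming, overlap, width and cluster gap.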

Additional observations from a re-analysis of the deposited data

How the results depend on the processing

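Of 38 alternative values, 25 stayed within a margin and 13 did not; the margin was 1.5 times for a count and the 95% binomial or order-statistic interval for a share or median, so it is looser for counts. The share of Jmjd2a peaks overlapping Jmjd2c, 94.9%, was 86.2% when peak centres had to lie within 500 bp and 50.7% (n = 138) when only the wider 50% of each list was kept, and the corresponding Jmjd2c share of 67.2% was 48.3% (n = 143) with the wider 50%. Fewer peaks in both lists lower these shares by construction. The median Jmjd2a width of 849 bp was 939 bp among peaks covering the start. With every RefSeq start of the 332 genes in the promoter table and limits of 500, 1000 and 5000 bp, Zfp genes with Jmjd2a were 56.6%, 58.4% and 59.6%, with Jmjd2c 79.2%, 79.2% and 80.1%, and with both 55.4%, 56.6% and 58.1%. By name, the same 332 genes gave 52.4%, 73.2% and 50.6%. The RefSeq starts change both the naming and the start measured from, and their parts were not separated. Counted by promoter window at 1000 bp, both proteins were at 226 of 406 Zfp windows and at 6636 of all 32851 windows. With older symbols also matched, the peaks numbered 270 and 366 in place of 217 and 293. Clusters of 5 or more genes numbered 17 with a gap of 250 kb, 19 with 1000 kb and 13 with only starts named by a peak.

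No paired analysis was possible because the peak lists give no value per library. For the same reason leaving out a library could not be run. Depth, antibody and calling threshold are not known to be alike for the Jmjd2a and Jmjd2c lists, and their part in sites found in 1 list alone was not tested.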
